A study of Mus musculus with 8 samples.

Results

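The genes described here encode the T cell receptor complex, the coreceptors and signalling proteins that act on it, and the surface and nuclear proteins of the T lineage. They were taken from a list of 32 symbols, as every probe set that the platform annotation assigns to exactly 1 of them. That gave 61 probe sets of 30 genes among 45101 probe sets on the array, and 2 listed genes are not analysed here. A T cell recognises antigen through a receptor whose antigen-binding chains carry no signalling part of their own and depend on the CD3 and zeta chains. These chains recruit kinases and adaptors, helped by the coreceptors CD4 on helper cells and CD8 on cytotoxic cells. In the spleen, T cells lie beside the B cell follicles. Several of the genes are not restricted to them: Ets1 and Satb1 are also used by B cells, and Zap70, Cd247, Cd2 and Txk by natural killer (NK) cells.

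Total RNA of spleen cells from 8-week-old male mice was measured on Affymetrix arrays, 1 array per sample, in 4 samples of the C57Bl/6J strain (wild type) and 4 of B6.SB-Yaa/J. Yaa is a mutant Y chromosome that speeds autoimmune disease on susceptible backgrounds, and it is known to carry a copied piece of the X chromosome with Tlr7. All spleens were made into cell suspensions and freed of red cells by lysis, and no T cells were sorted. Each sample came from 1 mouse except Yaa 3, for which RNA of splenocytes from 2 spleens was combined. Values are given as log2(signal + 16) after quantile normalization, so a signal of 0 reads as 4 and differences of dim probe sets are understated. In RNA of a mixed suspension, fewer cells of a type and less RNA per cell cannot be told apart.

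Yaa 3 stood apart from the other 7 samples in its lymphocyte genes. Over the 30 T lineage genes, the mean log2 level was 7.70 to 8.18 in wild type, 7.94 to 8.62 in Yaa 1, Yaa 2 and Yaa 4, and 5.80 in Yaa 3. All 8 B cell markers were also below every wild-type sample there, with a mean of 5.36 against 10.19 to 10.56 in wild type, and their summed signal was 307 against 12726 to 17819. All 5 NK markers, all 9 monocyte and macrophage markers and all 8 neutrophil markers were above every wild-type sample in Yaa 3. The summed NK signal was 4684 there, 1204 to 1759 in wild type and 1302 to 1994 in the other Yaa samples, and that of monocyte and macrophage markers was 22687, 8076 to 8961 and 9034 to 12385. Neutrophil markers summed to 34439 in Yaa 3, 50668 in Yaa 1, 26728 in Yaa 4 and 12389 in Yaa 2, against 8173 to 13538 in wild type. Of 3 pancreas genes measured to detect neighbouring tissue, 2 were above every wild-type sample in Yaa 3. The mean of the 3 was 6.50 there against 5.84 to 6.28. Only 1 of the 3, Cela1, passed the signal filter, at 9.845 in Yaa 3 against 8.579 to 9.161 in wild type. Cpa1 was near the level of a zero signal, at 4.914 in Yaa 3 against 4.238 to 4.714, and at 4.916 in Yaa 2. The third, Ins2, was as dim and inside the wild-type range, at 4.729 in Yaa 3 against 4.234 to 5.164. The part of these cell types in the T lineage values was not tested. Yaa 3 did carry the Yaa signature of the copied segment: Rab9 stood at 9.65 in it, 9.65 to 9.89 in the other Yaa samples and 8.68 to 8.88 in wild type. The tests between the strains were run with and without Yaa 3, the pooled sample.

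**Figure D1:**
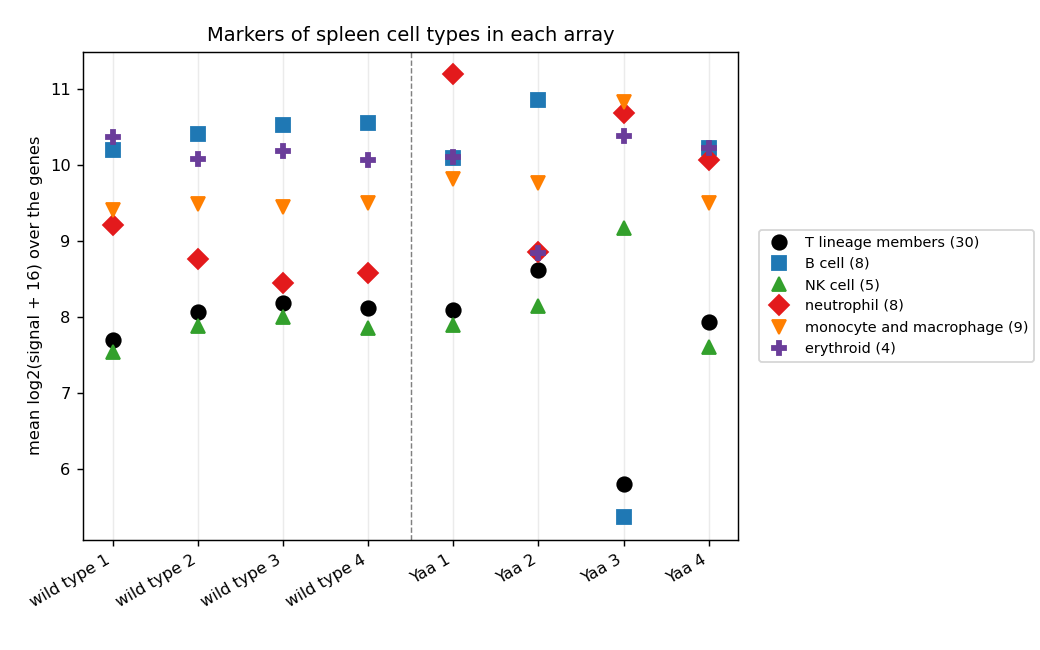
Mean log2(signal + 16) over the genes of each marker list (vertical axis) in each of the 8 arrays (horizontal axis; wild type left of the dashed line), with the number of genes in brackets. In Yaa 3 the T lineage mean was 5.80 and the B cell mean 5.36, while the NK mean was 9.17, above 7.54 to 8.00 in wild type.

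The promoters of the 4 genes of the receptor's signalling chains are shown because these genes were low together in Yaa 3. Being low there was not particular to them. In Yaa 3, 28 of the 30 T lineage genes and all 8 B cell markers were below every wild-type sample. Each window runs from 250 bases before to 50 after a RefSeq start (GRCm38.p6), 5′ to 3′ on the gene's strand. Capitals mark matches, on either strand, to one of 5 short motifs, and no 2 matches overlapped. CACCTG is an E box, the kind of site that E proteins bind during the development of lymphocytes. For the family of ETS factors, to which Ets1 belongs, the letters searched were AGGAAG. Those for the nuclear factors of the TCF and LEF family, to which Lef1 belongs, were CTTTGA. The family of Gata3 was searched for with the letters AGATAA. For the RUNX family, to which the further gene Runx1 belongs, the search used TGTGGT. Cd3g lies on the minus strand at chr9:44980382-44980681 and Cd3d on the plus strand at chr9:44981536-44981835, head to head with 854 bases between the windows. Cd3e lies on the minus strand at chr9:45009562-45009861 and Cd247 on the plus strand at chr1:165788431-165788730.
Cd3g: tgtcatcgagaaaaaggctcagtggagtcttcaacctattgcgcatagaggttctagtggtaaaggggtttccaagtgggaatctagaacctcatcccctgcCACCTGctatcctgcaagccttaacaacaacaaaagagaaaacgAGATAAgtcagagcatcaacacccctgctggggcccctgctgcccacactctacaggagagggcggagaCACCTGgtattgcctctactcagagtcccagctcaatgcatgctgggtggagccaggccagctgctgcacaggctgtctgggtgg
Cd3d: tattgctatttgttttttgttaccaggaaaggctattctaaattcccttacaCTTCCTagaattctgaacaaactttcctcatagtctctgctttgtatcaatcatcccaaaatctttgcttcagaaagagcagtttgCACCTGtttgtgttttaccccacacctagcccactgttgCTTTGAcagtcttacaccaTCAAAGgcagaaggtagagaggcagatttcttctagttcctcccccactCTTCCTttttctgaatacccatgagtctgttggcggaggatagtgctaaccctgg
Cd3e: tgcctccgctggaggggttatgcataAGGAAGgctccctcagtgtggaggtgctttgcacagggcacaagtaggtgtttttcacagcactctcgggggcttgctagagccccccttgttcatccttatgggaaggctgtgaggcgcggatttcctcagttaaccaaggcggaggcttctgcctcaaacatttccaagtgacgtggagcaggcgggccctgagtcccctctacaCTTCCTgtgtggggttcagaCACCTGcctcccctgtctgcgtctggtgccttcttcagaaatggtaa
Cd247: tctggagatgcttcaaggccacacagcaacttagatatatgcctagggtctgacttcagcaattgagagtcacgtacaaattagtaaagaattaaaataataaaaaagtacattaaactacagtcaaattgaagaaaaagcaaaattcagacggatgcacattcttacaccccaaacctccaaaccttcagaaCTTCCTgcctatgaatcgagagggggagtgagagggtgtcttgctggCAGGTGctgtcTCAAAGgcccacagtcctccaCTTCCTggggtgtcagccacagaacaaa

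All 4 windows held the E box, Cd3g with 2 matches and the others with 1 each. Over all 32851 promoter windows of this length, 20.2% held it, and 34.4% of the 32 windows of 21 T lineage genes did. The ETS letters were in 35.4% of all windows and 46.9% of the T lineage windows, with 2 matches each in Cd3d, Cd3e and Cd247. The TCF and LEF letters were in 16% and 28.1%, the GATA letters in 11.2% and 12.5%, and the RUNX letters in 16.8% and 15.6%. A match describes the letters, not a bound site. The motifs were chosen after the promoters were seen, so these shares are no test of enrichment.

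No T lineage gene passed the test between Yaa and wild type. limma called 0 of 54 tested probe sets at an adjusted p under 0.05, where it called 0.00444% of all 22518 tested, and 7 member probe sets were below the signal filter and not tested. At an unadjusted p under 0.05, 1 of 54 was listed (1.85%), a Grap2 probe set on the lower side, where limma listed 1.76% of all tested probe sets as lower and 2.97% as higher. No member probe set separated the groups, whereas over all tested probe sets 2.43% did so with Yaa higher and 1.67% with Yaa lower. The median log2 difference over the 30 genes was -0.40, with 27 lower and 3 higher means in Yaa, beside a median of -0.02 over 10340 tested genes.

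The sign of that median turned on Yaa 3. Without it, the median was 0.23, with 26 higher and 4 lower means, beside -0.03 over all genes. limma then listed 4 of 54 probe sets at an unadjusted p under 0.05, all higher (7.41%, where 3.86% of all tested probe sets were listed as higher and 3.06% as lower), and called 0 at an adjusted p under 0.05, where it called 0.00444% of all. Yaa 2 pulled the other way: the median was -0.73 without Yaa 2, and 0.010 without Yaa 2 and Yaa 3 together. Yaa 3 was the lowest of the 8 arrays in 50 of 54 tested probe sets (92.6%, against 26.3% of all tested), and Yaa 2 the highest in 44 (81.5%, against 30.5%). In 42 of the 54 both held at once, which was so for 16.3% of all tested probe sets.

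**Figure D2:**
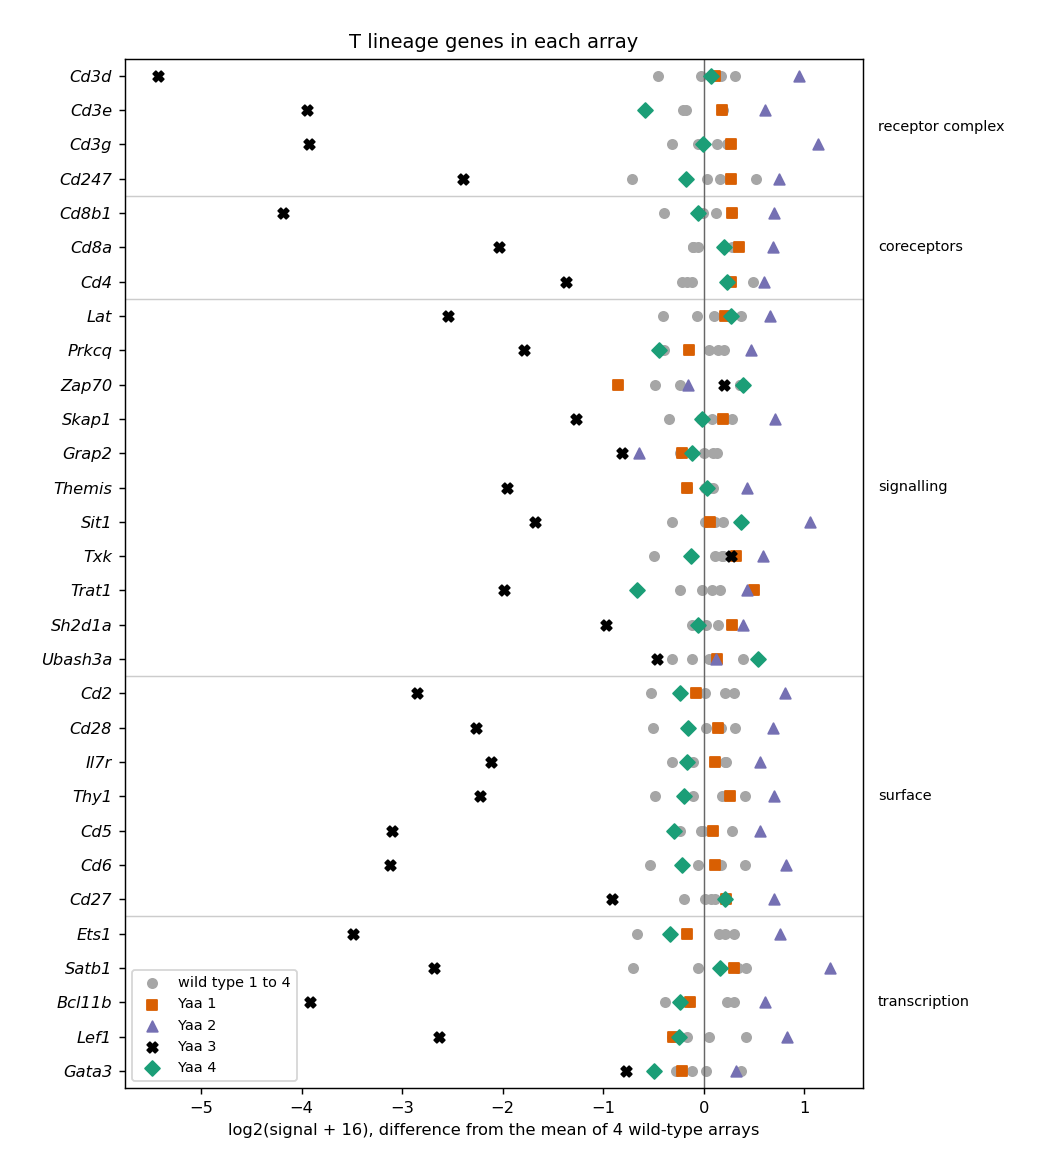
Difference of each array from the wild-type mean in log2(signal + 16) (horizontal axis) for the 30 T lineage genes (vertical axis, by role), 1 probe set per gene and 1 point per array. Yaa 3 lay lowest in 28 genes and Yaa 2 highest in 25, with Yaa 1 and Yaa 4 mostly among the wild-type points.

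The signalling chains of the receptor were far lower in Yaa 3 than in the other 7 samples, and Yaa 2 was the highest sample in each of the 4 genes. Cd3d, which encodes the CD3 delta chain, stood at 9.37, 9.80, 10.13 and 10.0 in wild type 1 to 4 and at 9.94, 10.77, 4.40 and 9.90 in Yaa 1 to 4. In the deposited signals this was 4.38 in Yaa 3 against 669 to 1117 in wild type. Cd3e (epsilon) stood at 8.24, 8.27, 8.63 and 8.64 in wild type and at 8.63, 9.06, 4.50 and 7.86 in Yaa, where Yaa 4 was also below every wild-type sample. Cd3g (gamma) stood at 7.97, 8.23, 8.42 and 8.52 in wild type and at 8.56, 9.42, 4.36 and 8.28 in Yaa. In all 3 genes Yaa 3 was close to the level of a zero signal, far below the other 7 samples, and Yaa 2 was the highest.

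Cd247, which encodes the zeta chain shared with NK receptors, was less low in Yaa 3 than the 3 CD3 genes. It stood at 6.79, 7.53, 8.02 and 7.67 in wild type and at 7.77, 8.26, 5.11 and 7.33 in Yaa. The difference of Yaa 3 from the wild-type mean was -2.39 for Cd247, against -5.42 for Cd3d, -3.95 for Cd3e and -3.93 for Cd3g. The wild-type mean of Cd247, 7.505, was below those of the 3 CD3 genes, 8.285 to 9.827. The floor at 4 left Cd247 less room to fall, though it stood at 5.11 in Yaa 3, where the 3 CD3 genes stood at 4.36 to 4.50. The part of the floor in this difference was not tested. The log2 fold changes over all samples were -1.07 ± 1.21 (SE) for Cd3d, -0.93 ± 0.86 (SE) for Cd3e, -0.63 ± 0.93 (SE) for Cd3g and -0.39 ± 0.61 (SE) for Cd247, each smaller than or close to its error (limma adjusted p = 0.997 each). Without Yaa 3 they were 0.37 ± 0.25 (SE), 0.069 ± 0.27 (SE), 0.47 ± 0.27 (SE) and 0.28 ± 0.31 (SE). The smallest adjusted p of the 4 in limma was then 0.716.

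In the coreceptors, too, Yaa 3 was the lowest and Yaa 2 the highest sample in the brightest probe set of each gene. Cd8b1, the CD8 beta chain, stood at 8.18, 8.56, 8.85 and 8.69 in wild type and at 8.85, 9.27, 4.38 and 8.51 in Yaa, with a difference of -4.19 between Yaa 3 and the wild-type mean. Cd8a, the alpha chain, stood at 7.80, 7.81, 8.19 and 7.85 in wild type and at 8.27, 8.60, 5.88 and 8.12 in Yaa. Yaa 1 and Yaa 2 were above every wild-type sample in Cd8a, and Yaa 4 was above 3 of them. Cd4 stood at 6.93, 7.54, 6.84 and 6.89 in wild type and at 7.32, 7.65, 5.68 and 7.28 in Yaa. Wild type 2 and the 3 unpooled Yaa samples were the 4 highest of the 8. Over all samples the log2 fold changes were -0.82 ± 0.94 (SE) for Cd8b1, -0.20 ± 0.52 (SE) for Cd8a and -0.065 ± 0.40 (SE) for Cd4. Without Yaa 3 they were 0.30 ± 0.22 (SE), 0.41 ± 0.17 (SE) and 0.37 ± 0.20 (SE). Cd8a was then 1 of the 4 probe sets listed by limma at an unadjusted p under 0.05, with an adjusted p of 0.679. The sign of Cd4 also turned without wild type 2, to 0.10. A second, dimmer Cd4 probe set stood at 4.61, 5.84, 5.68 and 5.20 in wild type and at 5.74, 6.45, 5.08 and 5.60 in Yaa, so that Yaa 3 lay inside the wild-type range and wild type 1 was lowest. Its log2 fold change was 0.38 ± 0.35 (SE), and 0.61 ± 0.34 (SE) without Yaa 3.

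**Figure D3:**
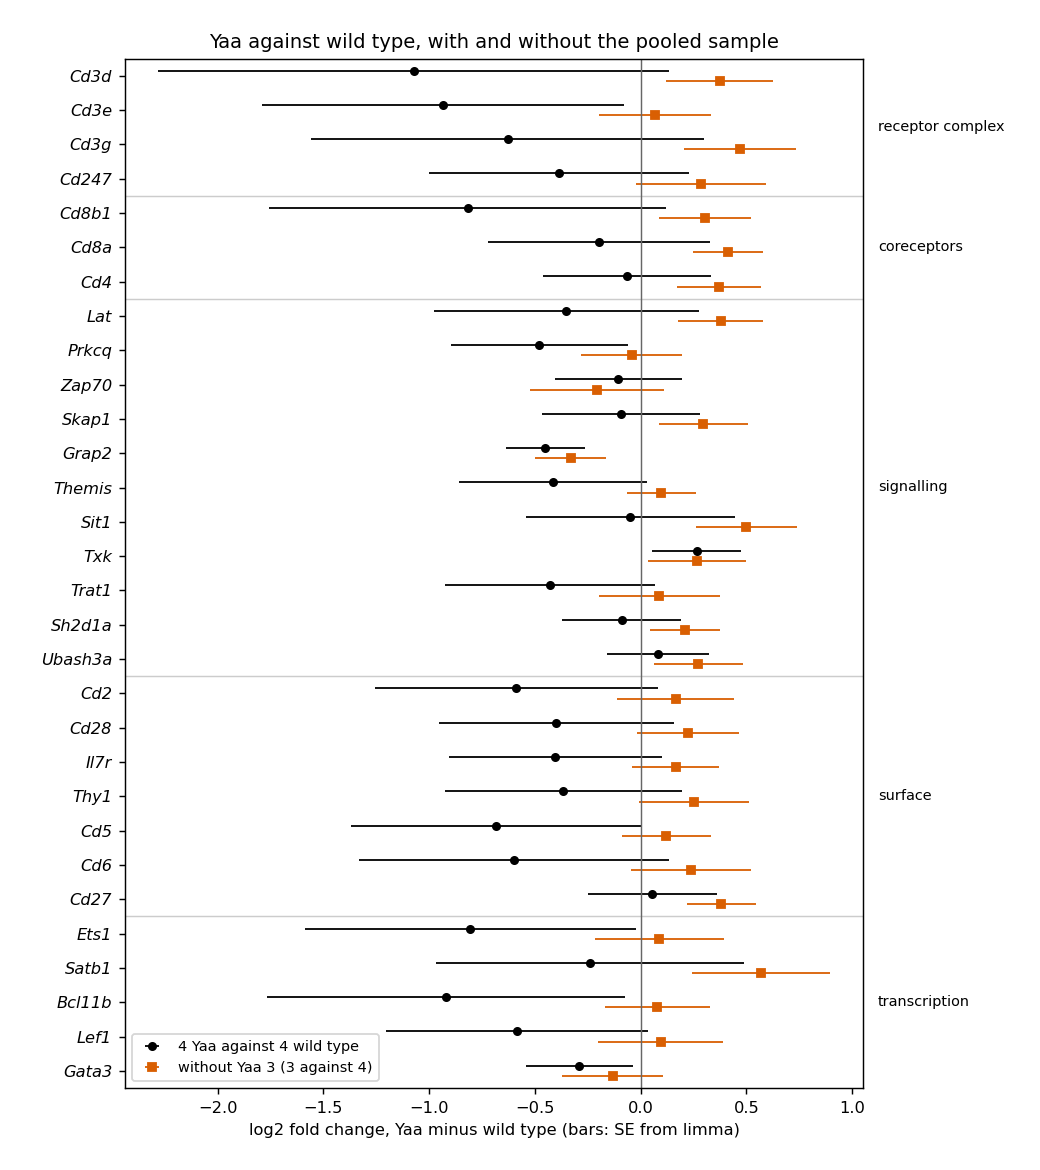
Log2 fold change of Yaa against wild type (horizontal axis, bars are SE from limma) for the 30 T lineage genes (vertical axis, by role), over all 8 arrays (circles) and without Yaa 3 (squares). Of the 30 genes, 27 lay below 0 with Yaa 3 and 4 without it.

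Among the signalling proteins, Yaa 3 was lowest in 9 of 11 genes, and the range of its differences from the wild-type mean was wide, from -2.55 to 0.27. The largest of them was that of Lat, the membrane scaffold that is phosphorylated after the receptor is activated. Lat stood at 8.60 to 9.38 in wild type, 9.22 to 9.67 in the other Yaa samples and 6.46 in Yaa 3. Trat1, an adaptor that stabilises the receptor, and Themis, which tunes its signals in the thymus, differed from the wild-type mean by -1.99 and -1.96 in Yaa 3. The log2 fold changes of Lat, Trat1 and Themis were -0.35, -0.43 and -0.41 over all samples and 0.38, 0.089 and 0.098 without Yaa 3. Prkcq, the kinase PKC theta of the immune synapse, stood at 7.54, 8.08, 8.14 and 7.99 in wild type and at 7.79, 8.41, 6.15 and 7.49 in Yaa. Its log2 fold change was -0.48 ± 0.42 (SE), and -0.043 ± 0.24 (SE) without Yaa 3.

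Grap2, the adaptor Gads that couples Lat to SLP-76, was the 1 listed gene over all samples. It stood at 7.33, 7.42, 7.47 and 7.10 in wild type and at 7.11, 6.68, 6.51 and 7.21 in Yaa. Both Yaa 2 and Yaa 3 were below every wild-type sample, unlike in most of the other genes, and the remaining 2 Yaa samples lay just above wild type 4. The log2 fold change was -0.45 ± 0.18 (SE; limma unadjusted p = 0.0376, adjusted p = 0.997), and -0.33 ± 0.17 (SE) without Yaa 3. With single samples left out it was no longer listed in 5 of 8 fits, those without wild type 1, 2 or 3, Yaa 2 or Yaa 3.

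Txk and Zap70, kinases of the Tec and Syk families that act below the receptor, and Ubash3a, a negative regulator, were the 3 of 30 genes least low in Yaa 3 by their brightest tested probe sets. Txk stood at 5.99, 6.68, 6.60 and 6.66 in wild type and at 6.80, 7.07, 6.75 and 6.36 in Yaa, and Yaa 3 was 0.27 above the wild-type mean. The brightest Zap70 probe set read 7.73 in Yaa 3, inside the wild-type range of 7.04 to 7.89. These levels are after quantile normalization. In the deposited signals Txk read 58.82 in Yaa 3, against 45.95, 109.9, 77.57 and 91.54 in wild type 1 to 4. That Zap70 probe set read 126.8 in Yaa 3, against 138.9, 283.2, 112 and 233.5. In the other 2 tested probe sets of Zap70, Yaa 3 was the lowest of the 8 arrays, with differences of -0.88 and -0.43 from the wild-type mean. The one at -0.88 carries the array's mark for possible cross-hybridisation, whose part in its value was not tested. Ubash3a stood at 5.42 in Yaa 3, just below the wild-type range of 5.56 to 6.27, and its untested probe set differed by -0.77 there. For Txk and Ubash3a the log2 fold changes were 0.27 ± 0.21 (SE) and 0.083 ± 0.24 (SE), of which that of Ubash3a was -0.023 with the values as deposited. Sit1, an inhibitory transmembrane adaptor, Skap1, which links the receptor to integrins, and Sh2d1a, the adaptor SAP, had -0.048, -0.094 and -0.090 over all samples and 0.50, 0.30 and 0.21 without Yaa 3.

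The surface receptors were lowest in Yaa 3 and highest in Yaa 2 in 7 of 7 genes. Cd5, an inhibitory receptor that marks T cells and a minor class of B cells, stood at 7.87, 8.39, 8.10 and 8.08 in wild type and at 8.20, 8.67, 5.0 and 7.82 in Yaa. Cd6, its relative, stood at 6.93, 7.40, 7.63 and 7.87 in wild type and at 7.57, 8.27, 4.34 and 7.24 in Yaa. Their log2 fold changes were -0.68 ± 0.69 (SE) and -0.60 ± 0.73 (SE), and 0.12 ± 0.21 (SE) and 0.24 ± 0.29 (SE) without Yaa 3. Both differences were smaller than their errors in either comparison.

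Cd27, a costimulatory receptor of the TNF receptor family, was the 1 of 54 tested member probe sets whose groups did not overlap once Yaa 3 was left out, where 4.77% of all tested probe sets separated with Yaa higher and 4.13% with Yaa lower. Of the 7 untested ones, 1 each of Skap1 and Ubash3a also separated with Yaa higher. The share over all untested probe sets was not computed, and both were dim. In Skap1 the lowest unpooled Yaa sample stood at 5.563 and the highest wild type at 5.555. In Ubash3a they stood at 5.557 and 5.417. Cd27 stood at 6.74, 7.02, 7.05 and 6.96 in wild type and at 7.17, 7.65, 6.03 and 7.16 in Yaa. The log2 fold change was 0.056 ± 0.31 (SE) over all samples and 0.38 ± 0.16 (SE) without Yaa 3 (limma unadjusted p = 0.0445, adjusted p = 0.707). Its sign over all samples turned with the scaling, to -0.12 with the values as deposited and -0.028 with arrays centred on their median.

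The remaining surface genes kept a clear signal in Yaa 3. Cd28, the receptor for B7 costimulation, stood at 8.08 there against 9.83 to 10.65 in wild type, Cd2, an adhesion receptor, at 7.50 against 9.84 to 10.65, and Il7r, through which naive cells receive their survival signal, at 7.33 against 9.13 to 9.67. Thy1 stood at 6.44 against 8.18 to 9.07. The log2 fold changes of these 4 were -0.59 to -0.37 over all samples and 0.17 to 0.25 without Yaa 3.

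The transcription factors of the lineage were lowest in Yaa 3 in 5 of 5 genes and differed in how much signal was left. Bcl11b, which fixes the T cell fate, stood at 7.89, 8.26, 7.65 and 8.33 in wild type and at 7.90, 8.64, 4.11 and 7.80 in Yaa, so that Yaa 3 was close to the level of a zero signal. Ets1 stood at 10.62, 11.58, 11.43 and 11.50 in wild type and at 11.12, 12.04, 7.79 and 10.95 in Yaa. The genome organiser Satb1 stood at 8.52 in Yaa 3 against 10.50 to 11.62 in wild type, and at 12.45 in Yaa 2. Lef1, of the Wnt pathway, stood at 4.96 against 7.28 to 8.02, and Gata3, which directs helper cells, at 5.20 against 5.69 to 6.34.

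Over all samples the log2 fold changes were -0.92 ± 0.85 (SE) for Bcl11b, -0.81 ± 0.78 (SE) for Ets1, -0.59 ± 0.62 (SE) for Lef1, -0.29 ± 0.25 (SE) for Gata3 and -0.24 ± 0.73 (SE) for Satb1. Without Yaa 3 they were 0.079 ± 0.25 (SE), 0.088 ± 0.30 (SE), 0.095 ± 0.30 (SE), -0.13 ± 0.24 (SE) and 0.57 ± 0.33 (SE). Gata3, Grap2, Prkcq and the brightest Zap70 probe set were the 4 with a lower mean in Yaa without that sample.

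**Figure D4:**
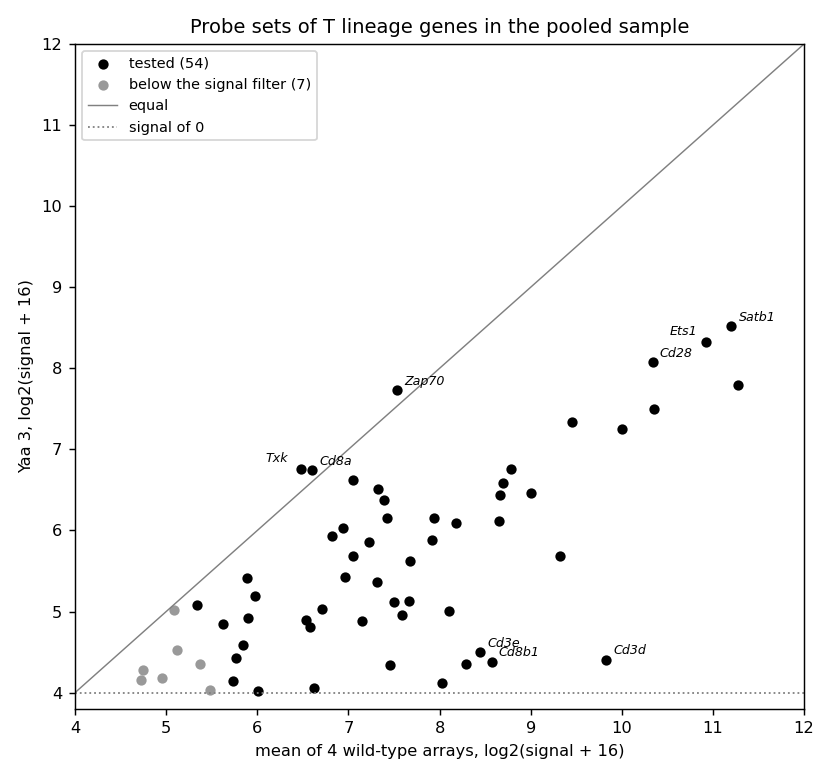
Level in Yaa 3 (vertical axis) against the mean of the 4 wild-type arrays (horizontal axis), both log2(signal + 16), for the 61 probe sets of T lineage genes. The solid line marks equal levels and the dotted line a signal of 0. Cd3d stood at 9.83 in wild type and 4.40 in Yaa 3. Probe sets of Zap70, Txk and Cd8a lay on or above the line after quantile normalization.

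Levels in Yaa 3 below 5, a signal under 16, were found in 17 of 54 tested probe sets (31.5%), against 3.45% of all tested. Yaa 3 was at least 3 below the wild-type mean in 9 of 54 (16.7%), against 0.666% of all, which were probe sets of Cd3d, Cd3e, Cd3g, Cd8b1, Cd5, Cd6, Bcl11b, Ets1 and Satb1. By role, the median difference of Yaa 3 from the wild-type mean was -3.94 for the receptor chains, -2.68 for transcription factors, -2.26 for surface receptors, -2.04 for coreceptors and -1.26 for signalling proteins, beside 0.12 over all tested genes. The floor at 4 limits how far a dim probe set can go, so these medians also reflect the wild-type levels, whose medians were 8.37, 8.03, 8.66, 7.92 and 7.32.

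Where a gene had several probe sets, most but not all showed the same order of arrays. The 4 tested Cd8a probe sets differed from the wild-type mean by -2.04, -1.38, -1.01 and 0.14 in Yaa 3. The last read 58.44 in Yaa 3 as a deposited signal, below the 60.79 to 113.1 of wild type. It carries the array's mark for possible cross-hybridisation, whose part in its value was not tested. Fold changes differed in sign between the 3 Zap70 probe sets, at -0.10, 0.29 and -0.11 on the log2 scale over all samples. The one at -0.11 carries the same mark. The one at 0.29 stood at 6.79, 7.16, 7.17 and 7.07 in wild type and at 7.51, 8.07, 6.62 and 7.14 in Yaa 1 to 4, and had 0.52 ± 0.22 (SE) without Yaa 3 (limma unadjusted p = 0.0413, adjusted p = 0.707). The 5 Satb1 probe sets ran from -1.03 ± 0.76 (SE) to 0.10 ± 0.69 (SE) over all samples and from -0.15 to 0.84 without Yaa 3, and the last was the fourth listed in that comparison (limma unadjusted p = 0.0497, adjusted p = 0.716). That probe set stood at 7.88, 8.78, 9.13 and 9.0 in wild type and at 9.23, 10.32, 6.58 and 9.08 in Yaa, and among the unpooled Yaa samples Yaa 4 lay below wild type 3. All 4 probe sets each of Ets1 and Bcl11b had lower means in Yaa over all samples, from -0.81 to -0.06 and from -0.92 to -0.28. The 3 tested Cd247 probe sets had -0.68, -0.39 and -0.21.

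Within the wild-type group, most of the genes shared their lowest sample. Wild type 1 was the lowest of the 4 wild-type samples in 44 of 54 tested probe sets (81.5%), against 32.7% of all tested. Yaa 1 lay within the wild-type range in 39 of 54 (72.2%, against 59.3% of all) and Yaa 4 in 41 (75.9%, against 56.4%), while Yaa 2 was above every wild-type sample in 45 (83.3%, against 38.8%). The median difference from the wild-type mean over the 30 genes was 0.13 in Yaa 1, 0.67 in Yaa 2, -2.17 in Yaa 3 and -0.12 in Yaa 4. In Yaa 2 the 8 B cell markers had a median difference of 0.39, and 3 of 4 erythroid markers were below every wild-type sample, with a summed erythroid signal of 4936 against 14306 to 17654 in wild type. The part of either in the T lineage values of Yaa 2 was not tested.

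Of 44 further genes of T cell signalling and traffic, 36 were tested. limma called 0 of them at an adjusted p under 0.05, and 0 had an unadjusted p under 0.05, with or without Yaa 3. Over all 10340 tested genes, 4.85% had an unadjusted p under 0.05, and 7.1% without Yaa 3. Their median log2 difference was -0.24 over all samples, with 29 lower and 7 higher means, and 0.12 without Yaa 3, with 11 lower and 25 higher. The 4 with the smallest p were the transcription factor Runx1 at -0.33 ± 0.15 (SE), Lcp2, the adaptor SLP-76, at 0.35 ± 0.18 (SE), Rasgrp1, which activates Ras, at -0.85 ± 0.58 (SE), and the GTPase Gimap3 at -0.60 ± 0.42 (SE). Runx1 stood at 7.27 to 7.46 in wild type and at 6.86, 6.86, 7.08 and 7.41 in Yaa 1 to 4. Lcp2, which is also used by myeloid cells and platelets, was not low in Yaa 3, at 9.08 against 8.17 to 8.79 in wild type. Across the 36, the median difference of Yaa 3 from the wild-type mean was -1.24, and it was the lowest array in 30.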

How the data were processed

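The authors deposited 1 linear intensity for each probe set, computed with MAS5 per the submitters' notes on processing. For the MAS5 version and target level, each is not given in the sources used here. Detection calls were not used. Trimmed means of the arrays (2% off each end) ran from 106.9 to 193.1, so the arrays were quantile normalized and taken as log2(signal + 16). Of the probe sets other than controls, those whose mean log2 signal exceeded the median were tested, 22518 in all. The groups were compared with limma 3.58.1 (R 4.3.3, lmFit and eBayes with a trend), adjusted by Benjamini-Hochberg over all tested probe sets; the procedure was tested on simulated data. Nothing in the labels ties same-numbered samples, and p-values measure the spread between these samples. The number of arrays limits the precision.

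Names come from the platform's annotation table, with symbols updated to GRCm38.p6 by Entrez ID. The tested probe set with the highest mean signal stands for a gene. Values in every array are given for the receptor chains, the coreceptors, and in each other role the 2 genes with the largest differences and any listed at an unadjusted p under 0.05 with or without Yaa 3. Further T cell genes are named if listed, or else the 4 with the smallest p. Lat, Txk, Zap70, Ubash3a and others are given in more detail after their values were seen. The members and lists were chosen with earlier results of these data known, and the motifs after the promoters were seen. Promoters are RefSeq's, from GRCm38.p6, which held windows for 21 of the 30 genes. Alternatives changed the pseudocount, scaling, filter, variance model, array weights, replicate block, probe sets per gene and samples, keeping the tested probe sets except where the filter was dropped. Figures were drawn with matplotlib 3.10.9.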

Additional observations from a re-analysis of the deposited data

Results flagged for a closer look

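Among 60 groups of 4 samples, 30 genes in each strain, 7 had a sample whose gap to its nearest neighbour exceeded Dixon's 95% critical value, as a share of the group's range; chance flags about 1 in 20 groups, and these genes vary together. Yaa 3 was the low sample in Cd3d at 4.40, Cd8b1 at 4.38 and Lat at 6.46. In most other genes Yaa 3 was lowest too, without a gap that exceeded the critical value. In wild type, sample 1 was low in Ets1 at 10.62 and in Txk at 5.99, sample 2 was high in Cd4 at 7.54, and sample 3 was high in Cd8a at 8.19.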

How the results depend on the processing

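limma called 0 of the T lineage probe sets and 0 of the 36 further T cell genes at an adjusted p under 0.05 in every alternative run. Over all features tested it called 143 with array weights, 105 without Yaa 2 and Yaa 3, 31 without Yaa 2, 11 without Yaa 4 and 0 to 2 in the others, with 1 call over all samples. The count of T lineage probe sets at an unadjusted p under 0.05, 1 over all samples, was 0 with array weights and 0 without Yaa 2 and Yaa 3, and ran from 0 to 4 with single samples left out. The median log2 difference of the 30 genes ran from -0.73 to 0.23 with single samples left out, the positive value being that without Yaa 3, and was 0.010 without Yaa 2 and Yaa 3 and -0.11 with array weights. The median of all tested probe sets was -0.20 with the values as deposited and -0.11 with arrays centred on their median, where the T lineage medians were -0.58 and -0.49. The labels share replicate numbers, but the deviations of same-numbered samples correlated at -0.37 to 0.02 and do not pair them; with a replicate block the median was -0.40, 1 probe set, of Cd247 and not Grap2, was listed and no adjusted call changed. The sign of the difference turned without Yaa 2 and Yaa 3 in Cd247 (0.050), Cd3d (0.090), Cd3g (0.14), Cd4 (0.25), Cd8a (0.28), Cd8b1 (0.11), Lat (0.24), Satb1 (0.23), Sh2d1a (0.11), Sit1 (0.22), Skap1 (0.090) and Thy1 (0.032). With array weights, which were 0.22 for both Yaa 2 and Yaa 3, it turned in Cd4 (0.11), Cd8a (0.20), Lat (0.054), Satb1 (0.046), Sh2d1a (0.11), Sit1 (0.059) and Skap1 (0.039). It also turned in Cd27 (-0.12) and Ubash3a (-0.023) with the values as deposited, in Cd27 (-0.028) with centred arrays, in Sit1 (0.044) with 64 added to the signal, and in Cd4 (0.16) and Zap70 (0.024) with the mean of all tested probe sets. With single samples left out, the genes whose sign turned ranged as follows: Bcl11b -1.43 to 0.079, Cd2 -1.06 to 0.17, Cd247 -0.76 to 0.28, Cd27 -0.16 to 0.38, Cd28 -0.77 to 0.22, Cd3d -1.75 to 0.37, Cd3e -1.45 to 0.069, Cd3g -1.21 to 0.47, Cd4 -0.28 to 0.37, Cd5 -1.09 to 0.12, Cd6 -1.07 to 0.24, Cd8a -0.49 to 0.41, Cd8b1 -1.32 to 0.30, Ets1 -1.33 to 0.088, Il7r -0.73 to 0.17, Lat -0.69 to 0.38, Lef1 -1.05 to 0.095, Satb1 -0.74 to 0.57, Sh2d1a -0.24 to 0.21, Sit1 -0.41 to 0.50, Skap1 -0.36 to 0.30, Themis -0.69 to 0.098, Thy1 -0.72 to 0.25, Trat1 -0.74 to 0.089, Ubash3a -0.070 to 0.27 and Zap70 -0.27 to 0.14. Leaving out Yaa 3 turned 23 of the 30, and leaving out any other single sample turned 1 or 2. The cause was not tested. Probe sets near a signal of 0 have no order among themselves.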
